A study of Mus musculus with 12 samples.

Results

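Enho and 7 other genes for secreted metabolic regulators of liver were followed in liver and brain RNA of mice without functional Mettl5, a methyltransferase that acts on an adenosine in 18S rRNA. The 8 genes, Enho, Fgf21, Angptl4, Fetub, Ahsg, Lect2, Gdf15 and Selenop, were taken by symbol from the 55487 genes of the count table, and each had exactly 1 row there. They were chosen by their role as liver-secreted factors and, for Enho, by its higher counts in KO than in WT liver, so the values of KO against WT liver are given as a description with no test for any of the 8. For 7 of the genes, RNA was higher in liver than in brain in all libraries. Enho RNA was lower in liver than in brain in the WT mice and overlapped between the tissues in the KO mice. Since the genes were chosen as liver-secreted factors, neither pattern tests the label of the set.

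The 12 libraries come from 6 mice, each of which gave a liver and a brain library. Mice A, C and F carry the label KO and mice B, D and E the label WT, which gives 4 groups of 3 libraries (WT liver, KO liver, WT brain and KO brain). The KO allele is a whole-body deletion of exon 2 of Mettl5, made by crossing a floxed allele from C57bl/6 x 129S6 hybrid embryonic stem cells, backcrossed to B6, with a line that expresses Cre from the CMV promoter. No group was treated, and the labels give neither age nor sex. Controls are labelled WT, whereas the study's text also names heterozygous controls for RNA sequencing, and the name WT is used below as the label has it.

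Library totals ran from 14403309 to 21623180 counts. Mettl5 itself was at 3.64 to 4.07 normalised counts (CPM, a count relative to its TMM-scaled library size) in KO liver against 8.13 to 14.9 in WT liver, and at 3.33 to 3.96 in KO brain against 5.02 to 9.09 in WT brain. KO and WT libraries were thus apart in both tissues. Mice E and F had at most 20 counts of Y-linked genes in a library and the other 4 mice at least 2112, which puts 1 mouse of each genotype apart. Hepatocyte markers summed to between 58495 and 75958 CPM in the liver libraries and to at most 32.5 CPM in brain. Markers of brain regions differed between the genotypes, since olfactory bulb genes summed to 2.64 to 4.37 CPM in WT brain and 31.8 to 44.9 CPM in KO brain, and cerebellar genes to 670 to 1046 CPM in WT and 92.3 to 428 CPM in KO.

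Hepatokines are proteins that liver cells release into blood and that act on metabolism in other organs. Adropin, the product of Enho, is a small secreted peptide tied to glucose and lipid use, and it is made in the brain as well as in the liver. FGF21 is a fasting hormone that signals through FGF receptors with beta-klotho as co-receptor, GDF15 is a stress-induced hormone sensed in the hindbrain through GFRAL, and ANGPTL4 inhibits lipoprotein lipase. Fetuin-A (Ahsg) and fetuin-B (Fetub) are plasma proteins of the cystatin superfamily, LECT2 is a chemotactic plasma protein, and selenoprotein P (Selenop) carries selenium to other tissues.

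The whole coding sequence of Enho is shown because the set was built around this gene and the sequence is short. It lies on the minus strand of mm10 at chr4:41638612-41638842, entirely within exon 2 of 2, and its 231 bases hold 76 codons before the stop. The start and stop codons are in capitals.
Enho: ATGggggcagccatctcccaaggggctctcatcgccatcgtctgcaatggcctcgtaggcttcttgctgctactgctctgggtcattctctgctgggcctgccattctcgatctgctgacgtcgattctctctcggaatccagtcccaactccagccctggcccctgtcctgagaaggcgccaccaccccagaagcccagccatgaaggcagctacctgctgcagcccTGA
Selenop is shown for its in-frame TGA codons, which the cell reads as selenocysteine in place of a stop. The coding sequence spans 1143 bases over exons 2 to 5 on the plus strand of chromosome 15 and holds 10 such codons before its TAA stop. The last 300 bases, at chr15:3279411-3279710 in exon 5, contain 7 of them, printed in capitals, and the other 3 lie upstream.
Selenop: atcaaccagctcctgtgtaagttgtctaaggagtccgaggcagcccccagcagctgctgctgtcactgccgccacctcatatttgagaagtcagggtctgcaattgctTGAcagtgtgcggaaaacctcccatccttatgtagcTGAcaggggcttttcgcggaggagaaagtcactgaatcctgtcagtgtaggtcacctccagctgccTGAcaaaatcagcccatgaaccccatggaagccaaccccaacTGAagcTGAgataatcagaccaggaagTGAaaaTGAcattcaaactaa
Both sequences were read from the GENCODE M21 transcripts. Counts of reads over exons, as measured here, say nothing of how these codons were translated.

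Enho RNA differed more between the genotypes in liver than that of the other 7 genes. Enho (ENSMUSG00000028445.7, chr4:41638144-41640324, minus strand) had 21.0, 17.2 and 35.6 CPM in the KO livers of mice A, C and F and 5.51, 7.75 and 8.91 CPM in the WT livers of mice B, D and E. All KO livers lay above all WT livers, and the KO liver of mouse F was the highest. The mean was 24.6 ± 9.70 CPM in KO and 7.39 ± 1.73 CPM in WT (SD, n = 3 each), a 3.33-fold difference with a log2 fold change of 1.74 and a standard error (SE) of 0.30. These are the values that led to the choice of Enho. Raw reads behind them numbered 307 to 682 in KO and 107 to 157 in WT livers.

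The values of Enho are given next by the presence of Y-linked reads, as a description of the same 6 livers. Among the mice with such reads, the mean CPM of 2 KO livers was 2.88 times that of 2 WT livers, and among those without, the single KO liver had 3.99 times the CPM of the single WT liver. Without mouse F the log2 fold change in liver was 1.37, and without mouse C it was 1.94. Hepatocyte markers summed to 69260 to 75157 CPM in KO liver, inside the range of WT liver, a sum made up mostly of Alb. Of the 6 markers, Tat was lower in all KO livers (1020 to 1315 CPM against 1661 to 1882 in WT) and Apoa1 higher in all of them (7912 to 8591 CPM against 4005 to 7404 in WT), and the ranges of the other 4 overlapped. Their part in the Enho values was not tested. In bulk tissue, a change in the number of cells of a type and a change in RNA per cell cannot be told apart. Enho overlaps Dnaic1 and Gm12406 on the opposite strand and no gene on its own strand, and the counting used strand.

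**Figure D1:**
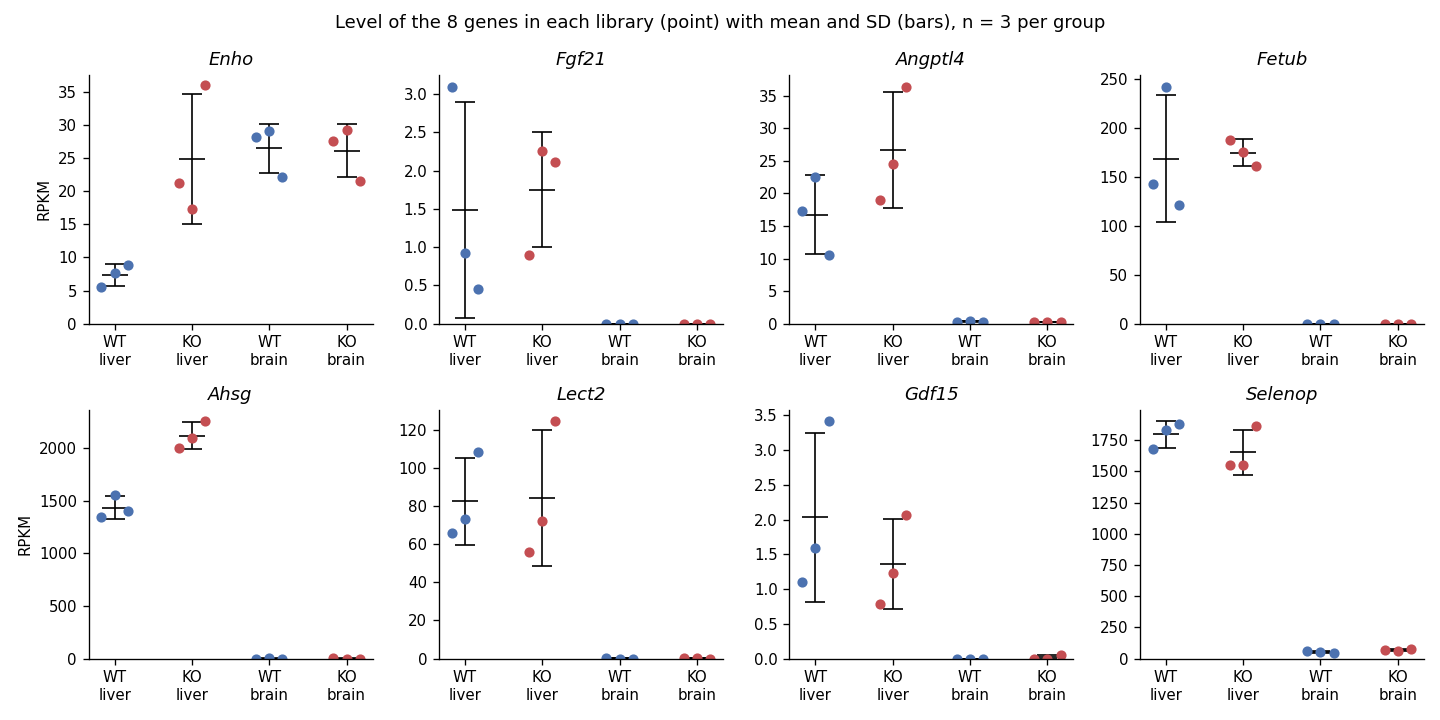
RPKM (reads per kilobase of exon and per unit of TMM-scaled library size, over all 12 libraries) of each of the 8 genes in the 4 groups on linear axes that start at 0, with 1 point per library in the order of mice B, D, E or A, C, F, and bars for the mean and SD (n = 3). Enho is the only gene of the 8 whose brain points reach the range of its liver points, and its KO livers at 17.3 to 36 RPKM lie above its WT livers at 5.52 to 8.78 RPKM.

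Of the other genes, Ahsg alone had liver groups that did not overlap. Ahsg (ENSMUSG00000022868.6, chr16:22891277-22899449) had 3434, 3617 and 3859 CPM in the KO livers and 2329, 2755 and 2467 CPM in the WT livers. The means of 3637 ± 213 and 2517 ± 217 CPM (SD, n = 3 each) differed 1.44-fold, with a log2 fold change of 0.53 and an SE of 0.15. The ratio was 1.39 among mice with Y-linked reads and 1.56 among those without. Fetub (ENSMUSG00000022871.13, chr16:22918334-22939778), the neighbour of Ahsg on the same strand, had 288, 271 and 246 CPM in KO and 220, 382 and 190 CPM in WT livers. Its WT range enclosed the KO range, and the log2 fold change was 0.021 with an SE of 0.25. Without mouse D, whose WT liver had the most Fetub, the log2 fold change was 0.39 for Fetub and 0.60 for Ahsg. The difference between these neighbouring fetuin genes was not tested.

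Angptl4, the inhibitor of lipoprotein lipase (ENSMUSG00000002289.16, chr17:33773750-33781830), had 52.6, 68.1 and 100.2 CPM in the KO livers and 48.0, 64.0 and 29.6 CPM in the WT livers. The groups overlapped, and the log2 fold change was 0.64 with an SE of 0.33. Mice without Y-linked reads gave the highest and the lowest of the 6 livers, so that the KO to WT ratio was 3.38 in them and 1.08 in the other 4 mice.

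Fgf21 and Gdf15, the hormones with stress and fasting roles, were low in both genotypes. Fgf21 (ENSMUSG00000030827.5, chr7:45613886-45615490) had 11, 30 and 30 reads in the KO livers and 45, 11 and 6 reads in the WT livers, or 0.663, 1.68 and 1.56 CPM against 2.32, 0.704 and 0.341 CPM. The highest and the lowest library were both WT, and the log2 fold change of 0.20 had an SE of 0.67. Without mouse B the log2 fold change was 1.32. Gdf15 (ENSMUSG00000038508.7, chr8:70629393-70632456) had 1.14, 1.79 and 2.97 CPM in KO and 1.60, 2.37 and 5.05 CPM in WT livers, with overlapping groups and a log2 fold change of -0.60 (SE 0.50), which was 0.0039 without mouse E and -1.02 without mouse F. The spread between mice was wide for both hormones, with an SE larger than the difference for Fgf21.

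Lect2 (ENSMUSG00000021539.9, chr13:56542464-56548502), which encodes leukocyte cell-derived chemotaxin 2, had 40.1, 52.2 and 89.1 CPM in KO and 47.5, 54.2 and 79.8 CPM in WT livers. The genotypes overlapped throughout, and the log2 fold change was -0.0013 with an SE of 0.32. Mice E and F, which lack Y-linked reads, had the highest Lect2 of their genotype. Selenop (ENSMUSG00000064373.12, chr15:3268547-3280508) had 3441, 3448 and 4114 CPM in KO and 3748, 4180 and 4272 CPM in WT livers, again with overlap, and a log2 fold change of -0.15 (SE 0.15). It overlaps Ccdc152 on the opposite strand, as Ahsg overlaps Gm30505, and both were counted by strand.

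Across the 14075 genes fitted in liver, the median log2 fold change was -0.0024 and the libraries of KO and WT did not overlap for 12.9% of genes, beside 2 of the 8 genes described here. No gene of the 14075 (0%) passed an adjusted p under 0.1 in edgeR's quasi-likelihood test, while 7.33% had an unadjusted p under 0.05 and 1.1% of the 15516 genes tested by DESeq2 passed an adjusted p under 0.1. Enho had the largest log2 fold change of the 8 in either direction, and nothing further is read from this, since Enho was picked on this contrast.

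**Figure D2:**
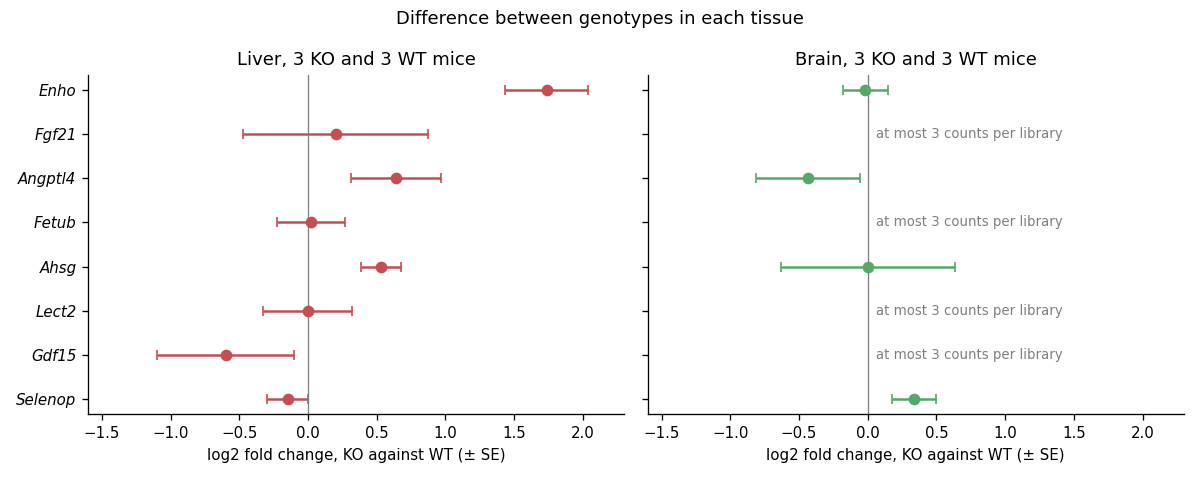
Log2 fold change of KO against WT with its SE for the 8 genes in liver (left) and for the 4 genes fitted in brain (right), 3 mice per genotype, while the other 4 genes had at most 3 reads in each brain library. Liver values run from -0.60 for Gdf15 to 1.74 for Enho, and in brain Enho lies at -0.016.

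The genotypes were also compared in brain, a tissue outside the contrast named in the choice of Enho, although all 8 genes were chosen with earlier results of these data known. Enho had 44.5, 47.0 and 34.8 CPM in the KO brains of mice A, C and F and 45.6, 46.4 and 35.7 CPM in the WT brains of mice B, D and E. The 2 groups covered nearly the same range, with a log2 fold change of -0.016, an SE of 0.17 and an adjusted p of 0.977 (edgeR quasi-likelihood test, Benjamini-Hochberg over all genes). Whether the genotype effect on Enho differs between liver and brain was not tested, because the liver libraries are those that selected the gene.

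Selenop had 260, 206 and 277 CPM in KO and 223, 193 and 172 CPM in WT brains, with overlapping groups, a log2 fold change of 0.34 (SE 0.16) and an adjusted edgeR p of 0.466. Angptl4 was low in brain, at 1.01 to 1.32 CPM in KO and 1.21 to 2.06 CPM in WT, with a log2 fold change of -0.43 (SE 0.38) and an adjusted edgeR p of 0.658. Without mouse D that fold change was -0.18. Ahsg stood at 0.725 to 0.894 CPM in KO and 0.301 to 1.56 CPM in WT, with a log2 fold change of 0.0032 (SE 0.63) and an adjusted edgeR p of 0.999. The WT brain with the most Ahsg, mouse D, was also the one with the most RNA of the hepatocyte list, 32.5 CPM in sum, and the part of that in the result was not tested. Fgf21 had no read in any of the 6 brain libraries, and Fetub, Lect2 and Gdf15 had at most 3 reads in each, so these 4 genes were not tested. A count of 0 allows up to 3 reads in a library, so low expression in brain is not ruled on here.

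None of the 4 genes tested in brain (0) passed an adjusted p under 0.1 in edgeR, none had an unadjusted p under 0.05 and none passed in DESeq2. Over all 17188 genes tested in brain, 0.064% passed, 11% had an unadjusted p under 0.05 and 16.3% had libraries that did not overlap between the genotypes. Markers of the olfactory bulb and the cerebellum differed between the genotypes in the same libraries, as given above, and choroid plexus markers summed to 17.5 to 21.6 CPM in KO and 28.1 to 44.5 CPM in WT. Their part in the brain values of Enho and Selenop was not tested.

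Liver and brain were compared next, within each genotype and on levels per kilobase (RPKM). Enho stood at 5.52, 7.60 and 8.78 RPKM in the WT livers and at 28.2, 29.0 and 22.1 RPKM in the WT brains of mice B, D and E, so each WT brain exceeded each WT liver. The log2 fold change of liver against brain was -1.85 with an SE of 0.21. In the KO mice A, C and F, Enho stood at 21.2, 17.3 and 36 RPKM in liver and 27.5, 29.2 and 21.5 RPKM in brain. These KO ranges overlapped, with a log2 fold change of -0.072 (SE 0.26), and mouse F alone had more Enho in liver than in brain. Without mouse F the value was -0.56. No p is given for Enho here, because its liver libraries are those that selected it.

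The other 7 genes were higher in liver than in brain in both genotypes. In WT mice, Ahsg was higher by a log2 fold change of 12.28, given with no p, Angptl4 by 5.59 (adjusted edgeR p 1.19e-07) and Selenop by 5.05 (adjusted edgeR p 3.29e-08). For genes with at most 3 reads in every brain library, the fold is a lower bound, the mean of the liver libraries against 3 reads per brain library. It describes group means and not each mouse. That bound was at least 2548-fold for Fetub, at least 584-fold for Lect2, at least 29.0-fold for Gdf15 and at least 10.9-fold for Fgf21. The WT livers of mice B, D and E had 45, 11 and 6 reads of Fgf21. Over all 17694 genes tested in WT, 35.4% passed an adjusted p under 0.1 with liver higher. The genes at the floor in brain, and Ahsg with 6 to 31 reads there, reached the fit through their liver reads, so neither a p for them nor a count of passes over the set is given. Fgf21 did not pass the filter on low counts in the WT fit and was not tested there.

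KO mice, which are other animals, gave values of the same order. The log2 fold change of liver against brain was 12.83 for Ahsg, which had 11 reads in each KO brain and is given with no p, 6.68 for Angptl4 (adjusted edgeR p 3.04e-08) and 4.59 for Selenop (adjusted edgeR p 3.21e-08). Lower bounds were at least 1992-fold for Fetub, at least 450-fold for Lect2, at least 14.7-fold for Gdf15 and at least 9.68-fold for Fgf21. Over all 17396 genes tested in KO, 36.2% passed with liver higher, and no count over the set is given for the same reason. Over all genes the median log2 fold change of liver against brain was -0.16 in WT and -0.17 in KO. Genes above a log2 fold change of 4, as Ahsg, Angptl4 and Selenop were, made up 7.77% of genes in WT and 7.85% in KO. Whether these differences between tissues depend on the genotype was not tested.

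**Figure D3:**
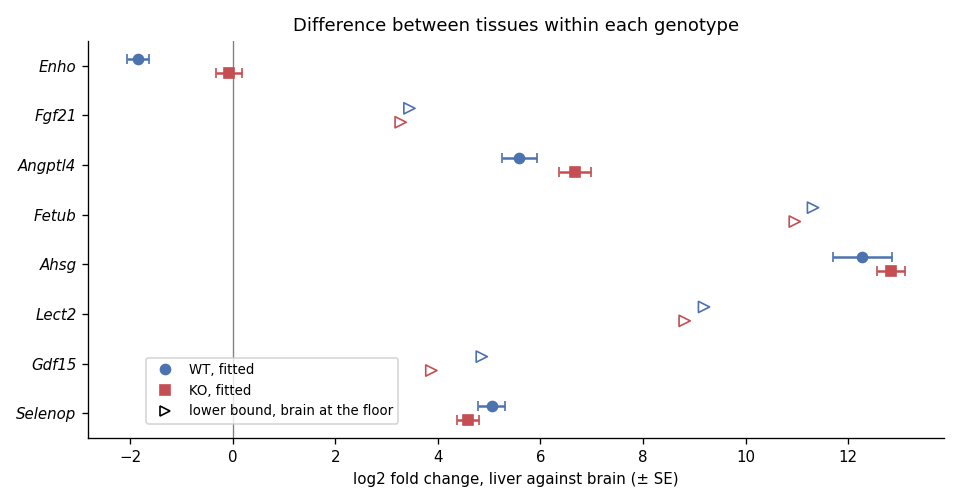
Log2 fold change of liver against brain with its SE in WT (circles) and KO mice (squares), 3 mice per genotype. Open triangles mark lower bounds for genes with at most 3 reads in every brain library, and Enho, at -1.85 in WT and -0.072 in KO, is the only gene of the 8 that is not to the right of 0.

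Ranked by RPKM, the 8 genes spanned about 3 orders of magnitude in liver. Selenop led in WT liver with 1796 ± 106 RPKM (SD, n = 3), followed by Ahsg at 1438 ± 110, Fetub at 169 ± 64.7, Lect2 at 82.6 ± 22.8, Angptl4 at 16.7 ± 6.04, Enho at 7.30 ± 1.65, Gdf15 at 2.03 ± 1.22 and Fgf21 at 1.49 ± 1.41 RPKM. Each neighbouring pair in this order had ranges that did not overlap, except Gdf15 and Fgf21. In KO liver Ahsg came first with 2121 ± 128 RPKM, ahead of Selenop at 1653 ± 179 RPKM, and their ranges did not overlap. Enho at 24.8 ± 9.87 RPKM overlapped Angptl4 at 26.6 ± 8.86 RPKM there, while in WT liver the 2 genes lay apart.

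Brain held another order. Selenop was the most abundant of the 8 in both genotypes, at 54.4 ± 6.88 RPKM in WT and 68.5 ± 10.1 RPKM in KO brain. Enho came next at 26.4 ± 3.74 RPKM in WT and 26.1 ± 4.01 RPKM in KO, apart from Selenop and from all genes below it. Ahsg and Angptl4 followed between 0.256 and 0.348 RPKM on average, with overlapping ranges, and the remaining 4 genes lay at or near 0.

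Genes whose log2 CPM followed Enho most closely over the 6 liver libraries were Taok2 (Pearson r 0.990), Ldlrad4 (0.984), Ppm1k (0.980), Astn2 (0.978) and Gm44331 (0.978). These are the top 5 of 14074 genes, and the 6 points share the genotype difference in Enho, so high values are what the ranking returns. Over the 6 brain libraries the same genes had r of -0.00091 for Taok2, 0.13 for Ldlrad4, -0.48 for Ppm1k and 0.21 for Astn2. Among the other 7 genes, r with Enho in liver was 0.94 for Ahsg, 0.64 for Angptl4, 0.29 for Lect2, 0.092 for Fgf21, 0.075 for Fetub, -0.079 for Gdf15 and -0.22 for Selenop. In brain it was 0.56 for Ahsg, 0.16 for Angptl4 and -0.10 for Selenop, and the rest of the 7 were not fitted there.

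The pathways around the 8 genes were described with 7 lists of 104 further genes, of which 97 were tested in liver. None of the 97 (0) passed an adjusted p under 0.1 in edgeR, and neither did any of the 14075 genes fitted in liver (0%). Of the 97, 14 had an unadjusted p under 0.05 (7 higher and 7 lower in KO), and 6 passed in DESeq2 (2 higher and 4 lower). The share of 14 in 97 stands beside 7.33% of all genes in liver, and the 6 of DESeq2 beside 1.1% of all genes it tested. The lists were chosen with earlier results of these data known. Neither these shares nor the list medians below are therefore a test of the lists.

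Other factors secreted by the liver, a list of 18 genes, included 5 with an unadjusted p under 0.05. Igfbp2, a binding protein of insulin-like growth factors, had 530 to 634 CPM in KO and 175 to 324 CPM in WT livers, a log2 fold change of 1.17 (SE 0.22) with an adjusted p of 0.383 in edgeR and 8.05e-05 in DESeq2. Igfbp1, its relative, had 90.0 to 321 CPM in KO and 56.5 to 78.3 CPM in WT, a log2 fold change of 1.59 (SE 0.46) with an adjusted p of 0.497 in edgeR and 0.00149 in DESeq2. Both binding proteins lay higher in all KO than in all WT livers. Angptl8, a relative of Angptl4, had 12.1 to 21.0 CPM in KO and 27.0 to 54.2 CPM in WT, with an adjusted p of 0.521 in edgeR and 0.0710 in DESeq2, and is named after its values were seen. The calls of these 3 genes therefore depended on the test. Angptl8 lay lower in all KO livers than in all WT livers, while Angptl4 had overlapping groups.

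Liver X receptor, SREBP and ROR genes, which cover lipid synthesis and the clock and are known for links to Enho, had a median log2 fold change of -0.45 over 15 genes, beside -0.0024 over all genes. Of these, 12 lay lower and 3 higher in KO, with the same counts under both other scalings (DESeq2 size factors, and without the mitochondrial rRNA genes). An unadjusted p under 0.05 in edgeR was found for 5 lower and 1 higher (40% of the 15, beside 7.33% of all genes in liver). Over the other settings 10 to 12 genes lay lower, with 10 in the fit of all 12 libraries and without mouse B or C. Without mouse E the median was -0.17. In brain 13 of the 15 lay lower and 2 higher, with a median of -0.24, which was -0.077 without mouse D. Fasn, the fatty acid synthase, had 571 to 1049 CPM in KO and 1270 to 2533 CPM in WT livers, with a log2 fold change of -1.27 (SE 0.30) and an adjusted p of 0.428 in edgeR and 0.00169 in DESeq2. Dbp, a transcription factor of the clock output, had 0.991 to 2.35 CPM in KO and 1.49 to 12.5 CPM in WT, so the groups overlapped. A log2 fold change of -2.34 (SE 0.81) came with adjusted p-values of 0.598 in edgeR and 0.0146 in DESeq2. The labels give no time of collection.

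Targets of PPARA, the fasting receptor that drives Fgf21 and Angptl4, had a median log2 fold change of -0.18 over 15 genes, and none had an unadjusted p under 0.05. Without mouse B the median was 0.095, without mouse D -0.085 and without mouse F -0.047. Cpt1a, the gate of mitochondrial fatty acid oxidation, had a log2 fold change of 0.22 (SE 0.16), Cyp4a10 one of -0.98 (SE 0.49) and Vnn1 one of -1.14 (SE 0.48). Targets of ATF4, the stress factor upstream of Gdf15 and Fgf21, had a median of 0.13 over 10 genes tested. When a mouse was left out it ran from 0.026 (without mouse A) to 0.24 (without mouse D), with 0.037 without mouse E. Over all 14 genes of the list the median was 0.040 in DESeq2 and 0.030 with no filter on low counts. Chac1, which degrades glutathione, had 2.01 to 2.82 CPM in KO and 0.511 to 1.86 CPM in WT, with a log2 fold change of 1.21 (SE 0.47) and an adjusted edgeR p of 0.629. Atf3 and Eif4ebp1 had log2 fold changes of -0.65 (SE 0.35) and 0.25 (SE 0.14).

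Receptors and partners of the 8 factors had a median log2 fold change of 0.16 over 12 genes tested, and 0.022 without mouse A. Lpl, the lipase that ANGPTL4 inhibits, had 8.34 to 29.9 CPM in KO and 7.52 to 9.86 CPM in WT livers, with overlap, a log2 fold change of 1.07 (SE 0.44) and an adjusted edgeR p of 0.676. Fgfr4 and Fgfr3, receptors for fibroblast growth factors, had log2 fold changes of 0.21 (SE 0.14) and -0.20 (SE 0.15). Selenoproteins and the factors that insert selenocysteine had a median of -0.067 over 23 genes, which was 0.023 without mouse A, -0.0037 without mouse F, -0.021 without mouse E and -0.10 without mouse C. Gpx3, the glutathione peroxidase of plasma, had 4.59 to 6.08 CPM in KO and 1.85 to 3.71 CPM in WT, with a log2 fold change of 0.81 (SE 0.30) and an adjusted edgeR p of 0.588. Selenot had 112 to 140 CPM in KO and 152 to 162 CPM in WT, with a log2 fold change of -0.28 (SE 0.13), and Selenof had one of -0.32 (SE 0.18). The cystatin family neighbours of the fetuins, Hrg, Kng1 and Kng2, had log2 fold changes of 0.089, 0.086 and -0.079, each smaller than its SE. Their groups overlapped, while those of Ahsg lay apart, as was so for 12.9% of all genes fitted in liver.

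**Figure D4:**
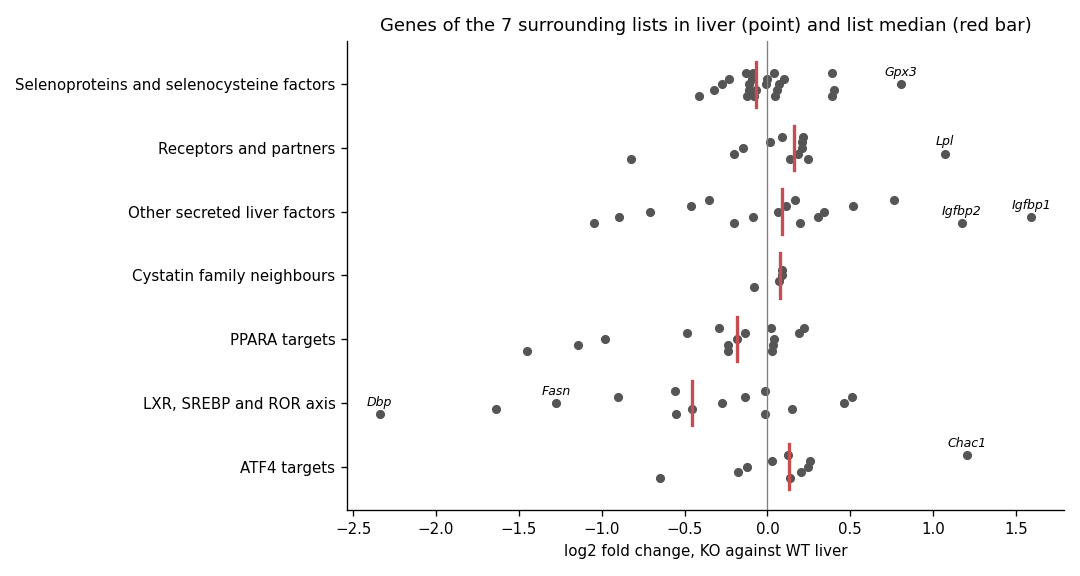
Log2 fold change of KO against WT liver for genes of the 7 lists around the 8 genes (points), with the median over all tested genes of each list as a red bar and 7 genes labelled. The list of LXR, SREBP and ROR genes has the lowest median, -0.45, and the highest point among the secreted factors is Igfbp1 at 1.59.

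In brain, 83 of the 104 list genes were tested. None (0) passed in edgeR or in DESeq2, and 8 had an unadjusted p under 0.05, with 3 higher and 5 lower in KO. That is 9.64% of the 83 list genes beside 11% of all genes in brain. By list, the share was 20% of 10 PPARA targets, 18.2% of 11 other secreted liver factors and 13.3% of 15 LXR, SREBP and ROR genes. It was 9.09% of 22 selenoproteins and selenocysteine factors. For ATF4 targets, cystatin family neighbours, and receptors and partners it was 0%. Hgf, the hepatocyte growth factor, had 6.26 to 10.1 CPM in KO and 2.81 to 5.78 CPM in WT brains, with an adjusted edgeR p of 0.378. Igf1, the insulin-like growth factor, had 8.42 to 13.9 CPM in KO and 6.93 to 7.60 CPM in WT, with an adjusted edgeR p of 0.367. Rora, a nuclear receptor of the ROR family, had 180 to 218 CPM in KO and 248 to 267 CPM in WT, with an adjusted edgeR p of 0.392. Selenom, a selenoprotein of the endoplasmic reticulum, had 46.5 to 56.8 CPM in KO and 61.5 to 82.5 CPM in WT, with an adjusted edgeR p of 0.380. These 4 genes had the smallest p of the 83, and their groups did not overlap, as was so for 16.3% of all genes in brain, in the same libraries whose olfactory bulb and cerebellar markers differed, and the part of those regions was not tested.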

How the data were processed

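Total RNA from liver and brain of 6 mice was made into stranded libraries and sequenced as single-end reads. Per the paper's methods, reads were trimmed with Trimmomatic, aligned to mm10 with STAR 2.7.3a and counted over exons by strand with featureCounts. The table deposited by the authors holds raw read counts per gene, with no normalisation, and the exon length of each gene.

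Counts were analysed in R 4.3.3 with edgeR 4.0.16 (TMM, filterByExpr with a minimum count of 10, robust quasi-likelihood F test, Benjamini-Hochberg over all genes tested, calls at an adjusted p under 0.1). Each comparison was fitted on its own 6 libraries. CPM are scaled by TMM within a tissue, and RPKM by TMM over all 12 libraries and by exon length. The floor was 3 counts per library, and folds against a group at or under it are lower bounds that cover counting error only. DESeq2 1.42.0 and the other settings given at the end were alternatives. The fit was also run on simulated counts with the same dispersion for all genes, which does not show its power in these libraries.

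The 8 genes and the 7 lists were chosen with earlier results of these data known. Genes were named by a rule: the 8 genes, Mettl5, the called genes and the 3 smallest p of each list in a comparison (not all are printed for brain), and the 5 genes closest to Enho by Pearson r of log2 CPM in each tissue. For a list gene with 2 rows, the row with more counts was kept. Promoter windows and proteins were not used here, and 2 list genes that the rule names in liver are counted in their lists but are not reported or drawn singly. Liver and brain libraries with the same letter come from the same mouse, so the letter pairs them. Over 12574 genes, the deviations of a mouse's 2 libraries from their group means correlated between -0.037 (mouse B) and 0.144 (mouse F). The samples are separate mice by label, and no batch or date is given.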

Additional observations from a re-analysis of the deposited data

How the results depend on the processing

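Of 263 alternative fold changes computed for the 8 genes, 26 had the opposite sign to the value reported, none of them for a difference that passed a test. They were 8 of 12 for Lect2 in liver, 3 of 12 each for Fetub and Fgf21 and 1 of 12 for Gdf15 there, 6 of 12 for Ahsg and 3 of 12 for Enho in brain, and 2 of 8 for Enho in KO liver against KO brain. In liver, the log2 fold change of Enho ran from 1.37 to 1.94 over the fits that left out 1 mouse, and that of Ahsg from 0.48 to 0.60. Angptl4 ran from 0.35 to 0.92, Gdf15 from -1.02 to 0.0039, Fetub from -0.17 to 0.39, Lect2 from -0.39 to 0.25, Selenop from -0.24 (without mouse F) to -0.10 and Fgf21 from -0.23 to 1.32, with the highest Fgf21 value without mouse B. In brain, the log2 fold change of Enho was 0.039 without mouse B, 0.047 without mouse D and 0.10 without mouse F, each of them opposite in sign to the value from all mice and uncalled, with a range from -0.12 to 0.10. Brain values of Angptl4 ran from -0.58 to -0.18 and those of Selenop from 0.25 to 0.45. The fold change of Ahsg in brain, which rests on at most 31 reads a library, was -0.019 with no filter on low counts, -0.00047 in DESeq2, -0.012 in a fit of all 12 libraries, and -0.077, -0.20 and -0.38 without mice A, B and E, with a range from -0.38 to 0.98. List genes called in liver numbered 0, but 9 with no filter (1.63% of all genes were called in that fit), 6 in DESeq2 (1.1%), 2 with presence of Y-linked reads as a covariate (Igfbp2 and Cyp4a10, beside 0.583%), and 0 to 1 when a mouse was left out (1 without mouse D, beside 0.597%). In brain 6 list genes were called with no filter (beside 3.15%), against 0. The cause of these moves was not tested.

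With mouse as a replicate block, which pairs liver and brain, the log2 fold change of liver against brain for Enho was -1.86 in WT and -0.13 in KO, and the calls of Angptl4 and Selenop held. Left out in turn, the KO mice moved Enho in KO between -0.56 (without mouse F) and 0.22. Genes at the floor in brain allow no comparison of genotypes there. The effect of genotype between the 2 tissues was not fitted.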

Other observations

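Enho in brain had 44.5 to 47.0 CPM in the 4 mice with Y-linked reads (A, B, C and D) and 34.8 and 35.7 CPM in mice F and E, which lack them. These values were noticed in the same data and were not tested. The genes closest to Enho over the 6 brain libraries were Gm43231 (Pearson r 0.990), Hoxb3 (0.982), Ddx3y (0.982), Smim1 (0.982) and Hpx (0.981), the top 5 of 17187 genes, and Ddx3y lies on chromosome Y. Over the liver libraries r was 0.21 for Hoxb3, -0.41 for Ddx3y, -0.52 for Smim1 and 0.30 for Hpx. In liver, mice F and E had the highest Enho of their genotype, 35.6 and 8.91 CPM.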
